A study of Drosophila melanogaster with 9 samples.

Results

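Of the 13937 genes counted in *Drosophila* S2 cells, 55 carried a name of a translation factor or an aminoacyl-tRNA synthetase. With earlier results of these data known, they were chosen by a rule on gene names. The rule took the rows whose gene name starts with eIF, eEF, eRF, Ef1 or Aats-, or has the form of 3 letters followed by RS. They comprised 34 translation factors and 21 synthetases, and 51 of the 55 passed the filter on low counts. S2 cells, a cultured line of embryonic origin that resembles blood cells (hemocytes), were kept without serum for 16 h. They then received 100 nM DILP2, 100 nM DILP5 or the solvent (vehicle) for 1 h, and polyA RNA was sequenced in 3 libraries per group, lettered A, B and C. DILP2 and DILP5 are *Drosophila* insulin-like peptides, the first chemically synthesised and the second recombinant according to the study's methods. All 9 libraries come from 1 cultured line, for which the labels name no genetic change, and share the serum depletion, and the design asks whether the 2 ligands change the same transcripts.

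Translation begins when eIF2 brings the initiator tRNA to the small ribosomal subunit, while eIF3 organises that subunit and the cap-binding factors of the eIF4 group recruit the mRNA. Elongation factors of the eEF1 complex then deliver the tRNAs that the synthetases have charged with amino acids, and eRF1 reads the stop codon. Insulin and TOR signalling are known to control this machinery largely through phosphorylation, with the eIF4E-binding protein Thor as a classical target in flies, so the transcripts of the machinery itself are a separate readout.

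The libraries held from 28365854 to 38557706 counted reads. Values are CPM (read counts scaled to library size with TMM factors) in replicates A, B and C, or the same per kb of exonic length (RPKM) where genes are compared with each other. Of 12 hemocyte markers, 11 were in the table and 7 had at least 10 CPM in every library, with summed levels of 9741 to 10571 CPM with DILP2, 8775 to 10589 CPM with DILP5 and 8937 to 9939 CPM in vehicle. LanA alone made up most of these sums, at 6933 to 8572 CPM across the libraries of all groups. The hemocyte genes He and Sr-CI were under 1 CPM. Hml had 2.36 to 4.57 CPM and eater 2.08 to 5.55 CPM, so S2 cells carried only part of that programme. The summed fat body markers lay between 0.251 and 0.599 CPM, and of the neuronal markers elav alone was above 10 CPM, at 64.7 to 72.9 CPM across the libraries of all groups. In this bulk RNA, fewer cells that express a gene and less RNA per cell cannot be told apart. The DILP2 and DILP5 libraries lettered C stood apart from A and B of their groups, with a chi-square per degree of freedom of 16.5 to 29.1 against 7.65 and 8.9 between A and B. The 3 vehicle pairs had 7.53 to 11.7.

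The transcripts of the machinery covered a range of 4 orders of magnitude per length. Ef1alpha48D, the main gene of eEF1A, which carries charged tRNA to the ribosome, had 5644 ± 222 RPKM with DILP2, 5609 ± 141 with DILP5 and 5602 ± 247 in vehicle (SD, n = 3 each). It alone took 1.34% to 1.42% of all counts with DILP2, 1.36% to 1.39% with DILP5 and 1.35% to 1.44% in vehicle. The other broadly used eEF1 subunits followed, with vehicle means of 1356 for Ef1gamma, 981 for Ef1beta and 294 for eEF1delta RPKM. The RNA helicase eIF-4a stood at 637, eIF-5A at 583 and the eIF2 subunit eIF-2beta at 345 in vehicle. The 5 eIF3 subunits lay close together, between 186 and 263. The cytosolic synthetases lay between 39.8 for Aats-trp and 130 for Aats-ala, and the mitochondrial ones between 5.62 for Aats-met and 25.7 for Aats-phe. The 5 subunits of eIF2B, the exchange factor that reloads eIF2 with GTP, had levels of 13.9 to 35.8. All members together made up from 2.90% to 2.99% of the counts.

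**Figure D1:**
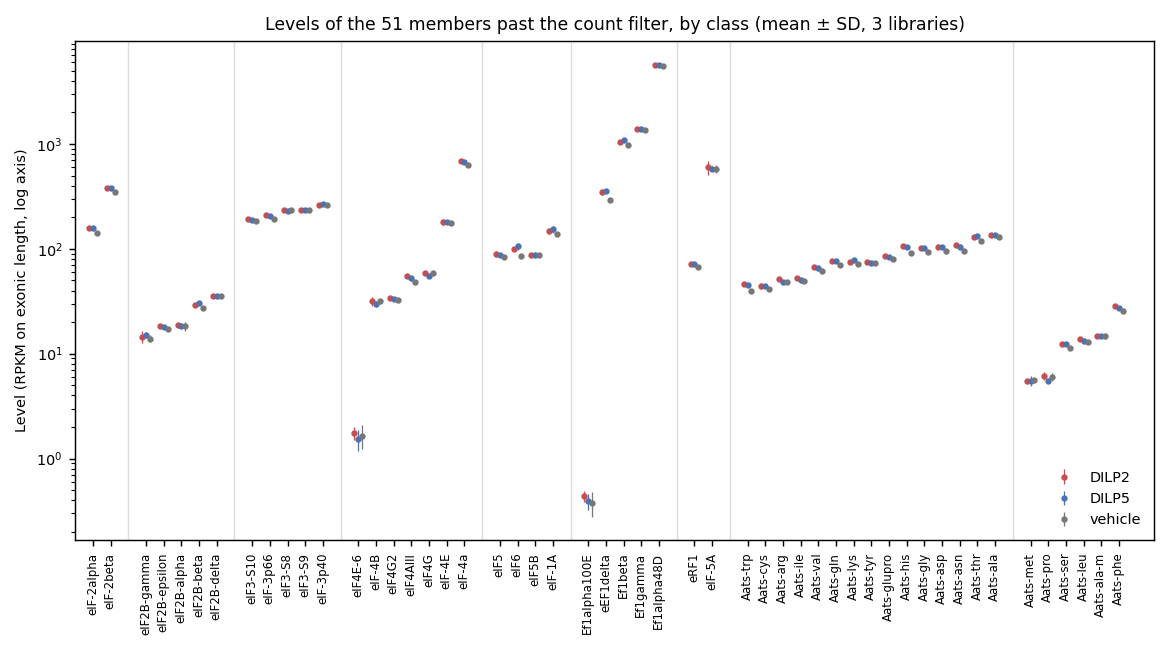
Level of each of the 51 members past the count filter, in RPKM on a log axis, with 1 point per group (mean of 3 libraries) and bars of 1 SD. From left to right the blocks are eIF2, eIF2B, eIF3, the eIF4 group, other initiation factors, eEF1, eIF-5A with eRF1, cytosolic synthetases and mitochondrial synthetases. The 3 groups nearly coincide for most genes, and Ef1alpha48D, at 5602 in vehicle, is about 4 orders of magnitude above Ef1alpha100E, at 0.376.

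Several paralogs were nearly silent. The cap-binding paralog eIF4E-4 had 0 counts in all 9 libraries, where 3 counts would be 0.0778 to 0.103 CPM. The paralogs eIF4E-3, eIF4E-5 and eIF4E-7 had 0 to 2, 0 to 3 and 1 to 4 counts per library, and these 4 genes were not tested. eIF4E-6 had 28 to 46 counts per library and passed. Ef1alpha100E, the second eEF1A gene, had 21 to 47 counts, and the counting rule for reads that match both eEF1A genes is not given in the sources used here, so its level is uncertain.

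With DILP2, 11 of the 51 members tested rose and 0 fell, which is 21.6% of them (edgeR quasi-likelihood test, Benjamini-Hochberg adjusted p under 0.05 over 8981 genes). Over all genes tested, 5.33% were called higher and 5.59% lower. With DILP5, 10 members rose and 0 fell, which is 19.6%, beside 6.28% of all genes called higher and 6.78% lower. The changes were small: log2 fold changes of the members ranged from -0.049 to 0.25 with DILP2 and from -0.12 to 0.31 with DILP5. Their median was 0.092 with DILP2 and 0.070 with DILP5, while the median over all genes was -0.0022 and -0.0019. With DILP2, 45 of 51 members had a fold change above 0, and with DILP5 41 of 51. In 22 members (43.1%) all 3 DILP2 libraries lay above every vehicle library, and in 0 members below, beside 14.3% and 16.1% of all genes. With DILP5 the numbers were 23 (45.1%) above and 1 below, beside 16.2% and 17.4% of all genes. Both comparisons use the same 3 vehicle libraries, so they are not independent of each other. The labels do not say that the libraries came from separate cultures, so p-values measure only the spread between these libraries.

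The 8 members called with both ligands were eEF1delta, eIF6, eIF-2beta and the synthetases Aats-his, Aats-trp, Aats-thr, Aats-gln and Aats-gly. DILP2 alone called eIF4AIII, Aats-asn and eIF-2alpha, and DILP5 alone called Ef1beta and Aats-lys, but no member was called between the ligands. These numbers changed when single libraries were left out, which leaves 2 libraries in a group. With DILP2 the number called was 2 without vehicle replicate A, 6 without vehicle B, 2 without vehicle C, 2 without DILP2 replicate A and 4 without DILP2 B, beside 9 to 11 without any other library. With DILP5 it was 3 without vehicle A, 2 without vehicle C and 2 without DILP5 B, beside 7 to 10 without any other. The share of all genes called higher moved as well, lying between 2.74% and 5.46% with DILP2 and between 3.27% and 6.75% with DILP5 over these fits. Where 2 members remained called they were 3.92% of those tested, beside 2.74% to 2.99% of all genes with DILP2 and 3.53% to 3.56% with DILP5, so the members' share was then close to that of all genes. In each of these fits 0 members were called lower.

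**Figure D2:**
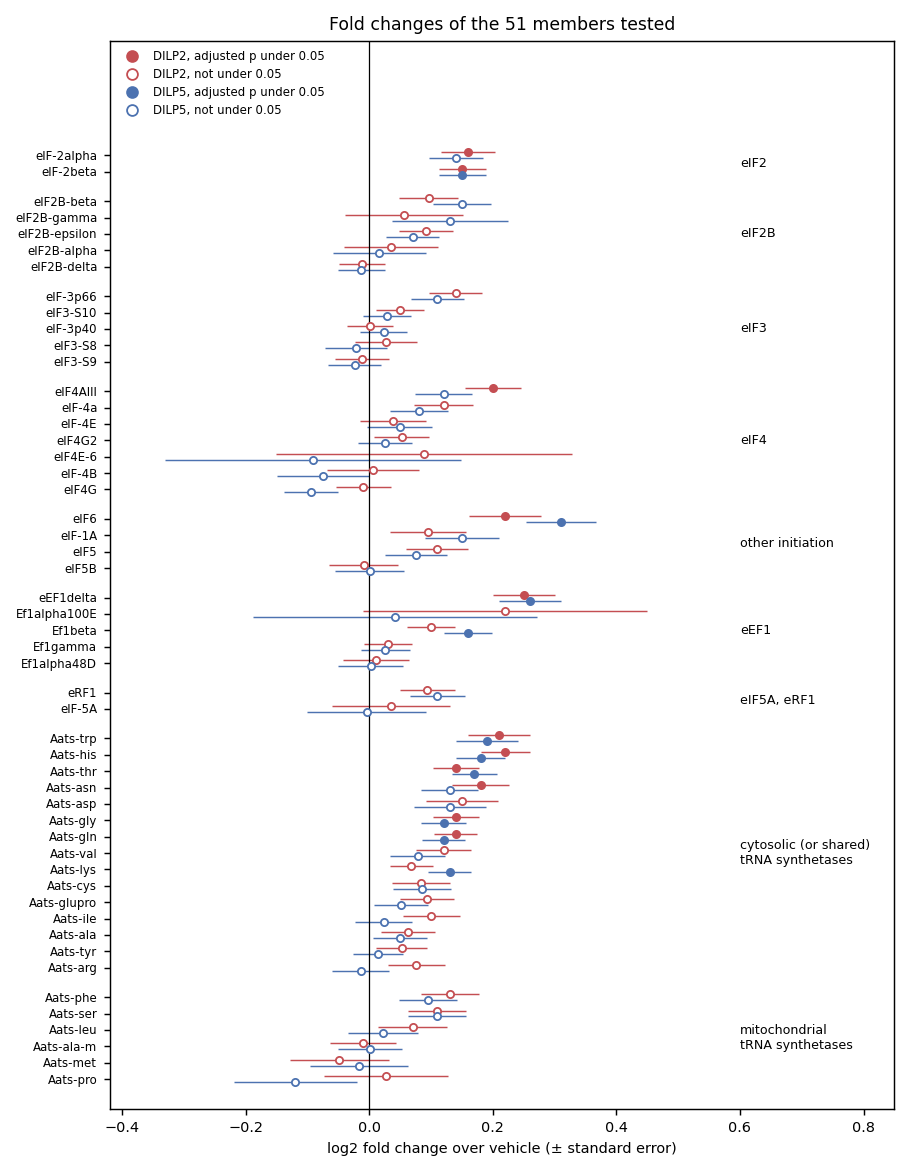
Log2 fold change over vehicle of the 51 members tested, by class, with bars of 1 standard error (edgeR, 9 libraries). Filled points have an adjusted p under 0.05 (11 with DILP2, 10 with DILP5). All filled points lie right of 0. For each ligand 6 of the 15 cytosolic and 0 of the 6 mitochondrial synthetases are filled. Of all genes, 5.33% were called higher with DILP2 and 6.28% with DILP5. A difference between the cytosolic and mitochondrial sets was not tested.

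Among initiation factors, both named subunits of eIF2 had higher levels in all 6 DILP libraries than in vehicle. eIF-2beta (FBgn0004926) had 445, 425 and 429 CPM with DILP2 and 442, 430 and 427 CPM with DILP5, against 390, 397 and 381 CPM in vehicle, so neither ligand's libraries overlapped with vehicle. Its log2 fold change was 0.15 with each ligand (standard error 0.038, edgeR adjusted p = 0.0262 with DILP2 and 0.0226 with DILP5). The calls were lost without vehicle A or vehicle C and without DILP2 A for DILP2 (adjusted p up to 0.107), and without vehicle A, vehicle C, DILP5 A or DILP5 B for DILP5 (up to 0.0931). eIF-2alpha (FBgn0261609), the subunit whose phosphorylation restrains initiation under stress, had 244, 243 and 238 CPM with DILP2, 248, 242 and 225 CPM with DILP5 and 222, 218 and 211 CPM in vehicle. It again did not overlap with vehicle for either ligand. The log2 fold changes of 0.16 for DILP2 and 0.14 for DILP5 had a standard error of 0.044, and edgeR gave adjusted p = 0.0438 and 0.0608. Its call with DILP2 held only without DILP5 A or without DILP5 C, and leaving out any of the other 7 libraries ended it (adjusted p up to 0.163). Without DILP5 C it was also called with DILP5. The annotation places another gene, rngo, over 12.6% of its exonic length, and ver over 5.14% of that of eIF-2beta. Summed, these eIF2 subunits were 675 ± 12.4 CPM with DILP2 and 672 ± 18.9 CPM with DILP5, against 607 ± 12.4 CPM in vehicle, or 11.2% and 10.7% higher.

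The 5 eIF2B subunits and the 5 eIF3 subunits among the members gave 0 calls. Of all genes, 5.33% were called higher with DILP2 and 6.28% with DILP5, so 0 calls in sets this small do not set them apart. A further eIF3 subunit, Trip1, was called with DILP2 and is given later with the genes of other names. The other eIF3 subunits tested under other names (eIF3e, eIF3f1, eIF3g1, eIF3j, eIF3k, eIF3l and eIF3m) were called with neither ligand. Of these, eIF3j with DILP5 came nearest (edgeR adjusted p = 0.0799). The 5 eIF2B subunits had log2 fold changes between -0.012 and 0.096 with DILP2 and between -0.013 and 0.15 with DILP5. The highest was eIF2B-beta with DILP5 (edgeR adjusted p = 0.0568). eIF2B-epsilon, the catalytic subunit, had 45.4, 44.2 and 44.4 CPM with DILP2, 42.4, 45.5 and 44.0 CPM with DILP5 and 42.9, 41.2 and 41.6 CPM in vehicle. Its fold changes of 0.09 and 0.07 did not pass (adjusted p = 0.217 and 0.337). Of the 5 eIF3 subunits, eIF-3p66 (eIF3d) came nearest, at log2 fold changes of 0.14 for DILP2 and 0.11 for DILP5 (edgeR adjusted p = 0.0581 and 0.124). The median of the 5 was 0.027 and 0.023, and their summed level of 2989 ± 24.1 CPM with DILP2 and 2943 ± 20.5 CPM with DILP5 overlapped with that in vehicle, 2914 ± 94.7 CPM.

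Of the 7 tested genes of the eIF4 group, 1 was called with DILP2 and 0 with DILP5, beside 5.33% and 6.28% of all genes called higher. The 1 call was eIF4AIII, which belongs to another complex and is given below. eIF-4E (FBgn0015218), the cap-binding protein that Thor sequesters, had 408, 374 and 427 CPM with DILP2 and 424, 401 and 393 CPM with DILP5, against 384, 406 and 388 CPM in vehicle. The groups overlapped, with log2 fold changes of 0.04 and 0.05 (edgeR adjusted p = 0.714 and 0.601). eIF4G (FBgn0023213), the scaffold that joins the cap complex to the ribosome, had 399, 369 and 381 CPM with DILP2 and 364, 366 and 353 CPM with DILP5, against 375, 404 and 378 CPM in vehicle. It was the single member tested whose 3 DILP5 libraries all lay below vehicle, yet its log2 fold change of -0.095 did not pass (standard error 0.044, adjusted p = 0.195). The helicase eIF-4a, which unwinds the mRNA leader, had 1813, 1661 and 1672 CPM with DILP2 and 1720, 1686 and 1609 CPM with DILP5, against 1591, 1588 and 1563 CPM in vehicle. All DILP libraries were above vehicle, but the fold changes of 0.12 and 0.08 were not called (adjusted p = 0.137 and 0.301). Its cofactor eIF-4B ranged from 53.9 to 68.1 CPM over the DILP libraries and from 59.0 to 64.9 CPM in vehicle, and the adjusted p were 0.977 and 0.563.

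eIF4AIII (FBgn0037573) shares its family name with eIF-4a but is known as the helicase of the exon junction complex, which marks spliced mRNA. It had 84.1, 78.4 and 82.6 CPM with DILP2 and 73.8, 81.0 and 77.4 CPM with DILP5, against 71.6, 72.2 and 69.4 CPM in vehicle. All DILP libraries exceeded vehicle, DILP5 A by the least. The log2 fold changes of 0.20 for DILP2 and 0.12 for DILP5 had a standard error of 0.046 (edgeR adjusted p = 0.018 and 0.104). Without vehicle A, vehicle C or DILP2 A the call with DILP2 was lost (adjusted p up to 0.0753). Between the ligands, its DILP5 over DILP2 log2 fold change was -0.078 with a 95% interval of -0.18 to 0.022.

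eIF6 (FBgn0034915) rose with both ligands. This factor keeps the large ribosomal subunit from joining the small one too early and also takes part in making that subunit. It had 103, 108 and 105 CPM with DILP2 and 122, 109 and 106 CPM with DILP5, against 90.3, 94.7 and 86.6 CPM in vehicle. The 6 DILP libraries were all higher than the 3 of vehicle, and DILP5 A was the highest. The increase was 16.5% with DILP2 (log2 fold change 0.22, standard error 0.058, edgeR adjusted p = 0.0313) and 24.0% with DILP5 (0.31, standard error 0.057, adjusted p = 0.00507). The DILP5 call held in each of the 9 fits that left out a library (adjusted p up to 0.0277). The DILP2 call was lost without vehicle A, vehicle C or any of the 3 DILP2 libraries (adjusted p up to 0.128). Of the other initiation factors, eIF5B, which joins the ribosomal subunits, had log2 fold changes of -0.01 and 0.00053 (adjusted p = 0.949 and 0.9974), and eIF-1A and eIF5 were not called. A neighbouring gene on the same strand, CG46312, covers 80.8% of the exonic length of eIF5, so its counts are uncertain.

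Of the 5 eEF1 genes tested, 1 was called with DILP2 and 2 with DILP5, beside 5.33% and 6.28% of all genes called higher. eEF1delta (FBgn0032198), a nucleotide exchange subunit that reloads eEF1A, had 347, 316 and 310 CPM with DILP2 and 321, 336 and 325 CPM with DILP5, against 267, 286 and 266 CPM in vehicle. The lowest DILP library, at 310 CPM, was above the highest vehicle library, at 286 CPM. It rose by 18.8% with DILP2 (log2 fold change 0.25, standard error 0.050, edgeR adjusted p = 0.0098) and by 19.9% with DILP5 (0.26, standard error 0.050, adjusted p = 0.00634). Both calls held without any single library (adjusted p up to 0.0471 and 0.0343) and under the 10 other settings tried. Ef1beta (FBgn0028737), the other exchange subunit, had 1017, 1029 and 983 CPM with DILP2 and 1080, 1042 and 1038 CPM with DILP5, against 959, 930 and 937 CPM in vehicle. All libraries of both ligands were above vehicle, and it was called with DILP5 (log2 fold change 0.16, standard error 0.039, adjusted p = 0.0198) and not with DILP2 (0.10, standard error 0.039, adjusted p = 0.133). The DILP5 call was lost without any vehicle library and without DILP5 A or DILP5 B (adjusted p up to 0.0716).

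The most abundant eEF1 subunits had fold changes near 0. Ef1alpha48D (FBgn0000556) had 13504, 13689 and 14530 CPM with DILP2 and 13601, 13640 and 14220 CPM with DILP5, against 13961, 13131 and 14315 CPM in vehicle. Its log2 fold changes were 0.01 and 0.0019 (standard error 0.053, edgeR adjusted p = 0.934 and 0.989). Ef1gamma, the structural subunit, had 2306, 2400 and 2334 CPM with DILP2 and 2354, 2348 and 2324 CPM with DILP5, against 2320, 2282 and 2296 CPM in vehicle (adjusted p = 0.694 and 0.71). Whether the eEF1 subunits differ from one another in their response was not tested. Of the later factors, eRF1 had 223, 229 and 212 CPM with DILP2 and 219, 229 and 222 CPM with DILP5, against 210, 215 and 197 CPM in vehicle, with log2 fold changes of 0.09 and 0.11 (adjusted p = 0.221 and 0.15). eIF-5A, which helps ribosomes past stalling sequences, had log2 fold changes of 0.04 and -0.0045 (adjusted p = 0.875 and 0.984).

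**Figure D3:**
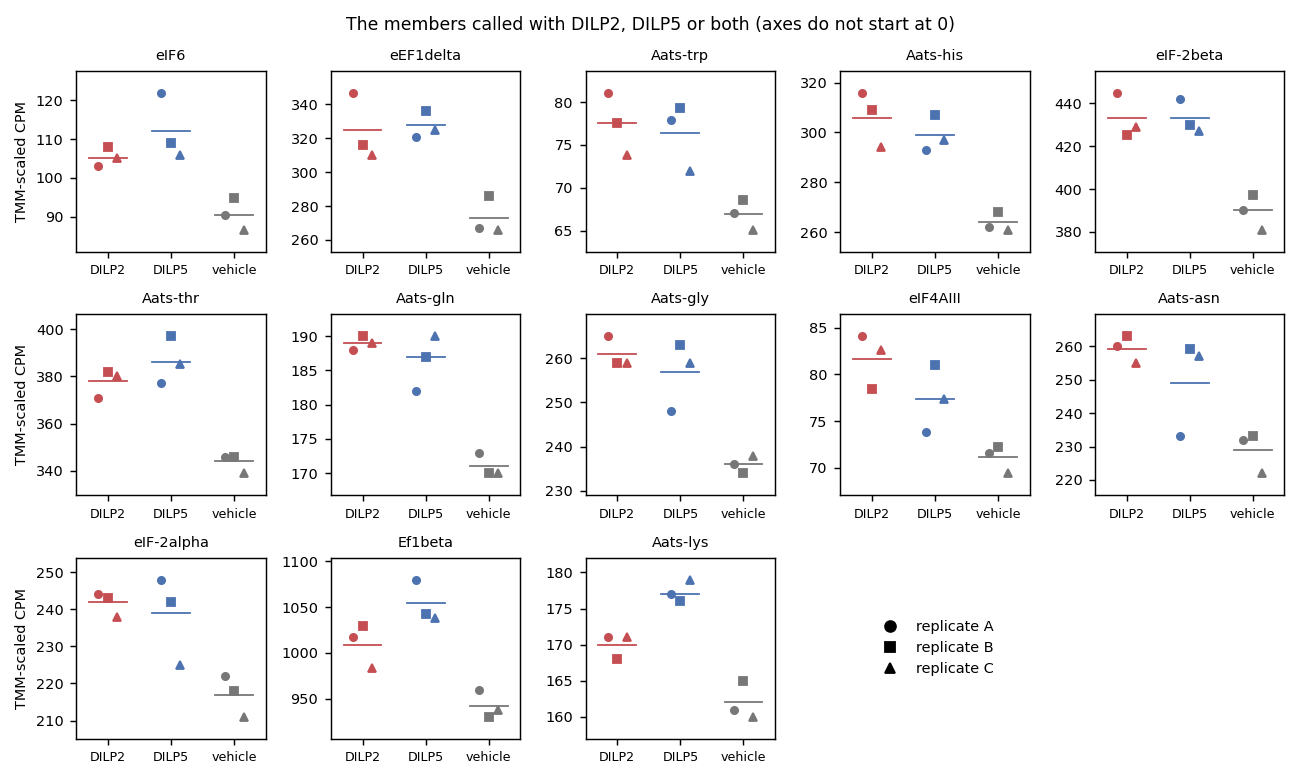
TMM-scaled CPM in each library for the 13 members called with DILP2, DILP5 or both, with a bar at the mean of each group of 3 libraries. The vertical axes do not start at 0. All DILP libraries lie above the vehicle libraries, except that for Aats-asn DILP5 A and vehicle B are level at 233 CPM. For eEF1delta the DILP libraries lie at 310 CPM and more, against 286 CPM and less in vehicle. The genes were picked by calls on these same libraries, so the separation is no further evidence.

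Synthetases gave 6 of the 11 calls with DILP2 and 6 of the 10 with DILP5, all among the 15 that serve the cytosol (some of them also supply mitochondria). That is 40% of the 15 with each ligand, beside 5.33% of all genes called higher with DILP2 and 6.28% with DILP5. Of these 15, 15 had a log2 fold change above 0 with DILP2 and 14 with DILP5, with a median of 0.12 for each. Their summed level was 3612, 3623 and 3499 CPM with DILP2 and 3395, 3599 and 3575 CPM with DILP5, against 3334, 3282 and 3253 CPM in vehicle. All DILP libraries lay above vehicle, and the means were 8.75% and 7.08% higher.

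Aats-his (FBgn0027087), which charges histidine tRNA, had 316, 309 and 294 CPM with DILP2 and 293, 307 and 297 CPM with DILP5, against 262, 268 and 261 CPM in vehicle. It rose by 16.2% with DILP2 (log2 fold change 0.22, standard error 0.040, edgeR adjusted p = 0.00628) and by 13.4% with DILP5 (0.18, standard error 0.040, adjusted p = 0.0128). The DILP2 call held without any single library (adjusted p up to 0.0321). With DILP5 it was lost without vehicle A, vehicle C or DILP5 B (adjusted p up to 0.0615). The gene Bx overlaps 8.91% of its exonic length on the same strand.

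Aats-trp (FBgn0010803), the tryptophan enzyme, had 81.1, 77.6 and 73.8 CPM with DILP2 and 77.9, 79.3 and 72 CPM with DILP5, against 67.1, 68.6 and 65.1 CPM in vehicle. In both ligand groups replicate C was the lowest, though still above vehicle. Its log2 fold change was 0.21 with DILP2 and 0.19 with DILP5 (standard error 0.050, edgeR adjusted p = 0.0209 and 0.0281). The calls were lost without vehicle A, vehicle C, or replicate A or B of the same ligand (adjusted p up to 0.0908 and 0.114). Aats-thr (FBgn0027081), for threonine, had 371, 382 and 380 CPM with DILP2 and 377, 397 and 385 CPM with DILP5, against 346, 346 and 339 CPM in vehicle. The groups did not overlap, and the log2 fold changes were 0.14 for DILP2 and 0.17 for DILP5 (standard error 0.037, edgeR adjusted p = 0.0378 and 0.0121). The DILP2 call was lost without any of the vehicle or DILP2 libraries (adjusted p up to 0.127), and the DILP5 call without vehicle C or DILP5 B (up to 0.0599).

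Aats-gln (FBgn0027090), for glutamine, had 188, 190 and 189 CPM with DILP2 and 182, 187 and 190 CPM with DILP5, against 173, 170 and 170 CPM in vehicle. Aats-gly (FBgn0027088), for glycine, had 265, 259 and 259 CPM with DILP2 and 248, 263 and 259 CPM with DILP5, against 236, 234 and 238 CPM in vehicle. Neither gene's ligand libraries overlapped with vehicle. Each had a log2 fold change of 0.14 with DILP2 (edgeR adjusted p = 0.0241 for Aats-gln and 0.0303 for Aats-gly) and of 0.12 with DILP5 (0.0376 and 0.0497). With each of the 9 libraries omitted in turn, the DILP2 calls held 4 times for each gene, and the DILP5 calls 2 times for Aats-gln and 1 time for Aats-gly. With DILP2 both were lost without any vehicle library, DILP2 A or DILP2 B (adjusted p up to 0.08 and 0.108). With DILP5, Aats-gly stayed called only without DILP5 A (otherwise up to 0.167), and Aats-gln only without DILP5 A or DILP2 C (otherwise up to 0.111).

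Aats-asn (FBgn0086443), for asparagine, had 260, 263 and 255 CPM with DILP2 and 233, 259 and 257 CPM with DILP5, against 232, 233 and 222 CPM in vehicle. DILP5 A, at 233 CPM, stood at the top of the vehicle range. The log2 fold changes of 0.18 for DILP2 and 0.13 for DILP5 had a standard error of 0.046 (edgeR adjusted p = 0.0288 and 0.101). Without any vehicle library, DILP2 A or DILP2 B the DILP2 call was lost (adjusted p up to 0.11), and without DILP5 A the gene was called with DILP5 too. Aats-lys (FBgn0027084), for lysine, had 171, 168 and 171 CPM with DILP2 and 177, 176 and 179 CPM with DILP5, against 161, 165 and 160 CPM in vehicle. The DILP5 libraries formed the highest and tightest group, and differed from vehicle by 0.13 on the log2 scale (standard error 0.035, edgeR adjusted p = 0.0293), while for DILP2 the value was 0.07 (adjusted p = 0.25). The DILP5 call was lost without vehicle A, vehicle C or any DILP5 library (adjusted p up to 0.107).

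The other 8 cytosolic synthetases were not called. Aats-glupro, the fused enzyme for glutamate and proline, had 463, 477 and 456 CPM with DILP2 and 433, 453 and 470 CPM with DILP5, against 449, 421 and 439 CPM in vehicle (edgeR adjusted p = 0.216 and 0.495). Aats-arg, for arginine, was the single cytosolic synthetase with a fold change below 0, at -0.014 with DILP5 (adjusted p = 0.883). Aats-asp had log2 fold changes of 0.15 and 0.13 (adjusted p = 0.128 and 0.156), but other annotated genes, Nmda1 among them, cover 76.3% of its exonic length, so its reads cannot be assigned with certainty.

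Of the members, 6 synthetases had a reference symbol that marks them as mitochondrial, and they gave 0 calls with either ligand. Such enzymes charge tRNAs for the few proteins made inside mitochondria. Of all genes, 5.33% were called higher with DILP2 and 6.28% with DILP5, so 0 calls among 6 do not set them apart. The median log2 fold change of these 6 was 0.048 with DILP2 and 0.011 with DILP5. Aats-met, the lowest per length in vehicle, had 21.8, 23.9 and 24.6 CPM with DILP2 and 22.3, 22.8 and 26.9 CPM with DILP5, against 23.2, 24.7 and 24.8 CPM in vehicle. Its fold changes of -0.049 and -0.017 were within the spread between libraries (edgeR adjusted p = 0.761 and 0.923). With DILP2 the lowest adjusted p was that of Aats-phe, which had 44.2, 41.5 and 43.6 CPM with DILP2 and 42.7, 42.6 and 40.4 CPM with DILP5, against 40.4, 37.8 and 39.5 CPM in vehicle (adjusted p = 0.0955 and 0.224). These 6 mitochondrial genes have fewer counts than the cytosolic ones, and a difference in response between the 2 sets was not tested. Further mitochondrial synthetases stand under CG numbers and were called with neither ligand. Their log2 fold changes ranged from -0.16 (ValRS-m) to 0.078 (TyrRS-m) with DILP2. With DILP5 they ranged from -0.22 (ValRS-m) to 0.068 (CysRS-m).

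**Figure D4:**
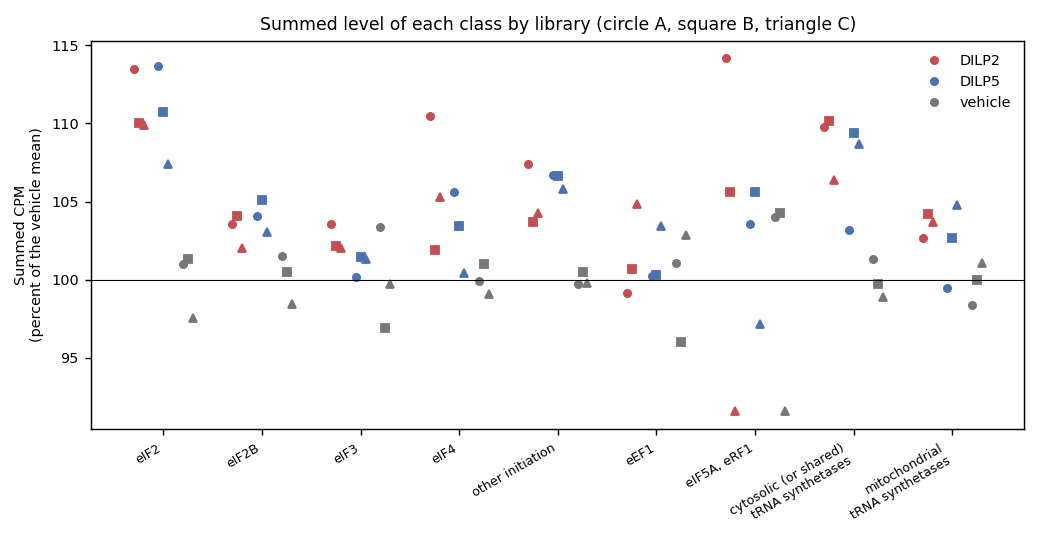
Summed CPM of each class in every library, as a percent of the vehicle mean of that class (marker shape gives the replicate letter; the line is at 100%, and the axis does not start at 0). eIF2, eIF2B, the other initiation factors and the cytosolic synthetases have all 6 DILP libraries above the 3 vehicle libraries, with DILP2 means 11.2%, 3.05%, 5.14% and 8.75% above vehicle, and the other classes overlap with vehicle for at least 1 ligand.

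The files name other genes of the same machinery by older symbols or CG numbers, and the annotation identified 37 of these, of which 34 were tested. With DILP2, 5 of the 34 (14.7%) rose and 0 fell, and with DILP5 2 (5.88%) rose and 0 fell, with medians of 0.048 and 0.05. Beside the 5.33% and 6.28% of all genes called higher, the share with DILP5 is no larger than that of all genes. The last subunit of eIF2, eIF2gamma (FBgn0263740, unnamed in the table), had 306, 301 and 294 CPM with DILP2 and 298, 302 and 294 CPM with DILP5, against 272, 274 and 273 CPM in vehicle. It was called with both ligands, with log2 fold changes of 0.14 and 0.13 (edgeR adjusted p = 0.029 and 0.0357). This gene shares exons with Su(var)3-9, so its counts are uncertain. The calls were lost without any vehicle library and without DILP2 A or DILP2 B for DILP2 (adjusted p up to 0.109), and without any vehicle library, DILP2 B, DILP5 A or DILP5 B for DILP5 (up to 0.13). The cytosolic serine enzyme CG17259 (SerRS) was also called with both, at 0.16 and 0.15 (adjusted p = 0.0319 and 0.0321), but not without vehicle A, vehicle C, or replicate A or B of the same ligand (up to 0.122 and 0.124). Trip1, the eIF3i subunit, the leucine enzyme CG33123 (LeuRS) and the mitochondrial elongation factor mEFG1 were called with DILP2 (0.21, 0.25 and 0.19, adjusted p = 0.0285, 0.0215 and 0.0489). The Trip1 and CG33123 calls were lost without vehicle B, vehicle C, DILP2 A or DILP2 B (up to 0.113 and 0.0832), and that of mEFG1 was kept only without DILP5 A or DILP5 C (otherwise up to 0.154). With DILP5 these 3 had log2 fold changes of 0.16, 0.19 and 0.17 (adjusted p = 0.0665, 0.0529 and 0.0585). eEF2 (Ef2b), the translocation factor, averaged 7040 ± 29.8 CPM with DILP2 and 6807 ± 180 CPM with DILP5, against 6756 ± 341 CPM in vehicle (adjusted p = 0.505 and 0.917).

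Among 15 regulators and partners of the machinery, 1 rose and 3 fell with each ligand, beside 5.33% higher and 5.59% lower over all genes with DILP2, and 6.28% and 6.78% with DILP5. The 3 that fell were Thor, Paip2 and Lk6. Thor (FBgn0261560), which binds eIF-4E and blocks cap-dependent initiation, had 65.1, 63.5 and 45.3 CPM with DILP2 and 70.6, 67.0 and 40.1 CPM with DILP5, against 115, 86.5 and 92.3 CPM in vehicle. Its replicate C was the lowest in both ligand groups, and the log2 fold change was -0.76 with DILP2 and -0.72 with DILP5 (edgeR adjusted p = 0.0299 and 0.0308). The call with DILP2 was lost without vehicle A, vehicle C or any DILP2 library (up to 0.113), and with DILP5 without vehicle A, vehicle C or DILP5 B (up to 0.12). Paip2 (FBgn0038100), which displaces the poly(A)-binding protein from mRNA, had 72, 64.6 and 61.0 CPM with DILP2 and 68.4, 66.7 and 63.9 CPM with DILP5, against 94.3, 84.5 and 83.6 CPM in vehicle. The groups did not overlap, and the log2 fold change was -0.41 and -0.40 (adjusted p = 0.00252 and 0.00241). Both Paip2 calls held without any single library (adjusted p up to 0.0147 and 0.0137). Lk6, the kinase that phosphorylates eIF-4E, averaged 1449 ± 48.2 CPM with DILP2 and 1432 ± 50.1 CPM with DILP5, against 1637 ± 78.9 CPM in vehicle (log2 fold change -0.18 and -0.19, adjusted p = 0.0432 and 0.0253). Its calls were lost without vehicle A, vehicle C, any DILP2 library or DILP5 B for DILP2 (up to 0.182), and without vehicle A, vehicle C, DILP5 B or DILP5 C for DILP5 (up to 0.123). With the length trend removed Lk6 was called with neither ligand. The gene that rose was Trip1 with DILP2 and Nat1 with DILP5 (0.15, adjusted p = 0.0363), the call of Nat1 being lost without any vehicle or DILP5 library (up to 0.129). Nat1 is annotated in the reference as Naa15-16, a subunit of an acetyltransferase. The kinases S6k, Tor, Gcn2 and PEK, the cap-binding repressor 4EHP (log2 fold change -0.13 and -0.12, adjusted p = 0.296 and 0.342) and the poly(A)-binding protein pAbp were not called.

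Between DILP5 and DILP2 at the same dose and time, 0 of the 51 members were called and 0% of all 8981 genes (edgeR, smallest adjusted p = 0.9998 among the members; DESeq2 also called 0). At an unadjusted p under 0.05 there were 0 members and 208 genes (2.32%). The median DILP5 over DILP2 log2 fold change of the members was -0.019, with 16 above 0 and 35 below. The standard error was 0.0462 in the median, and the 95% interval lay within a 1.2-fold change in either direction for 47 of 51 members. It was wider for Aats-pro, eIF2B-gamma, Ef1alpha100E and eIF4E-6, which were among the lower genes. For eIF6 the DILP5 over DILP2 log2 fold change was 0.09 (95% interval -0.035 to 0.22), or 0.021 without DILP5 A. For eEF1delta the value was 0.013 (-0.097 to 0.12), for eIF-2beta -0.00014 (-0.083 to 0.083), for Aats-lys 0.063 (-0.013 to 0.14) and for Ef1beta 0.062 (-0.024 to 0.15). The genes called with 1 ligand only were therefore not shown to differ between the ligands.

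Gene length moved with the fold changes. Over all genes tested, the Spearman correlation of exonic length with log2 fold change was -0.20 with DILP2 and -0.24 with DILP5, and over the members it was -0.24 and -0.28 (descriptions across genes, which share libraries and are not replicates). The 13 called members had a median exonic length of 1683 bases, against 2458 bases for the members not called. With a trend on length removed from each library, 15 members rose with DILP2 and 9 with DILP5, and 0 fell, with Ef1beta no longer called with DILP5. These were 29.4% and 17.6% of the members, beside 6.37% and 6.97% of all genes called higher. With scaling by library size alone, which shifts the median of all genes to -0.039 with DILP2 and -0.036 with DILP5, 3 and 4 members rose and 0 fell. That is 5.88% and 7.84% of the members, beside 3.42% and 4.08% of all genes called higher and 8.66% and 9.49% called lower. These were Aats-his, eEF1delta and eIF4AIII with DILP2, and Aats-his, Aats-thr, eEF1delta and eIF6 with DILP5.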

How the data were processed

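RNA-Seq was done on polyA RNA of S2 cells, 3 libraries each for DILP2, DILP5 and vehicle. The authors aligned the reads to the dm3 genome (Tophat, Bowtie), counted them per gene with easyRNASeq and deposited these raw counts, 1 column per library. Tool versions, the annotation used, strand settings and the rule for multiply matching reads are not given in the sources used here, and the library protocol names no step that marks strand. Overlapping genes and close paralogs are thus uncertain. The deposited file lists the 9 libraries only.

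Counts were analysed with edgeR 4.0.16 in R 4.3.3 (default filter by group, 8981 genes, TMM, quasi-likelihood test in 1 fit of 9 libraries without a block, Benjamini-Hochberg adjustment, threshold 0.05). The coefficient of variation between libraries estimated across genes was 6.29%. Standard errors were derived as |log2 fold change| over the root of the F statistic. Replicates differed by more than counting noise, which does not show that they came from separate cultures. Each library was taken as 1 sample. Lengths of exons and overlapping genes were taken from BDGP6, where 51 members matched by FlyBase ID and 4 by CG number. It is not the build of the files, so no coordinates are given. Limits from a count of 0 cover counting error only. DESeq2 1.42.0 and the other alternatives of the closing section were run on all genes, and the test was checked on simulated counts. Figures used matplotlib 3.10.9.

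The members and lists were chosen with earlier results of these data known. Named genes were any member, with values per library for members called with both ligands and up to 5 called with 1, for a fixed list of factors and synthetases, and for called genes of the 2 added lists. The first added list held genes whose reference symbol names the same machinery, and the second held 17 regulators and partners, of which 15 were matched. The lists share 5 genes.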

Additional observations from a re-analysis of the deposited data

How the results depend on the processing

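In the fits tried, 0 members were called lower with either ligand and 0 were called between the ligands. With DILP2 the 11 members called became 3 with library size only, 7 with no filter on low counts and 20 with the replicate block together with removal of the length trend, which is 5.88%, 13.0% and 39.2% of the members, beside 3.42%, 3.37% and 11.1% of all genes called higher. With the 3 libraries lettered C left out, an alternative chosen after seeing the data, 3 were called (5.88%, beside 4.51%). With DILP5 the 10 became 4 with library size only, 17 with the replicate block and 19 with the block and the length trend together, which is 7.84%, 33.3% and 37.3%, beside 4.08%, 10.9% and 11.6%. Leaving out 1 library gave 2 to 11 members with DILP2, 2 to 10 with DILP5 and 0 between the ligands. In these fits 2.74% to 5.46% of all genes were called higher with DILP2 and 3.27% to 6.75% with DILP5. DESeq2 called 12 with DILP2 and 11 with DILP5, or 23.5% and 21.6% of the members, beside 6.57% and 7.55% of all genes called higher. The cause of these shifts was not tested. The block rests on letters that share only a letter. Deviations of same-lettered libraries correlated at 0.142 to 0.163 for A, -0.0354 to 0.0967 for B and 0.286 to 0.348 for C. Between letters the correlations were -0.291 to 0.189. The block gave 15 members with DILP2, or 29.4% of them, beside 9.58% of all genes called higher. The median log2 fold change of the members was 0.055 with DILP2 and 0.035 with DILP5 under library size only, and 0.098 with DILP5 with the length trend removed. Single-gene values were compared only for the called members and the tested members of the fixed list. Of these values, 117 lost a call, 17 gained one and 0 called values changed sign. Calls gained by other members, such as Aats-asp and eIF-3p66 under the replicate block, are not in these numbers, so losses and gains cannot be weighed against each other.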
